A study of Mus musculus with 4 samples.

Results

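Genes that mark injured renal tubules, or tubular cells that have not completed repair, were followed in kidneys of tubule-specific Apela knockout mice after ischemia-reperfusion (I/R). They were selected by gene name, as Havcr1, Lcn2, Clu, Spp1, Sox9, Sox4, Vcam1, Cd44, Cp and Prom1, and all 10 were found among the 54078 features of the deposited expression table. Apela encodes ELA, a secreted peptide ligand of the receptor APJ. RNA-sequencing was performed on 4 libraries of kidney RNA taken 3 days after both renal pedicles had been clamped for 30 min, and asked which transcripts differ when tubules lack ELA during acute kidney injury.

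The 2 WT pools (WT1 and WT2) came from Apela flox/flox littermates without Cre, and the 2 Apela Ksp KO pools (KO1 and KO2) from Apela flox/flox mice with Cre driven by the Ksp-cadherin promoter, which is active in renal tubular epithelial cells. Every pool held RNA of 3 adult male mice, all of them injured, so non-injured levels were not analysed here and n counts pools. The paper reports that some animals had died by the sampling day, and that survival was lower in KO mice. The part of this difference in survival in the marker values was not tested. The labels give the strain as C57BL/6 x 129S4/SvJae and the paper as C57BL/6. The design text of the series names adipose tissue, whereas the title, the labels and the paper name kidney. The RNA was of kidney by its markers, since Umod lay between 788 and 1133 FPKM, fragments scaled by gene length and library total, Aqp2 between 159 and 289 FPKM, and of 6 adipose markers Ucp1 was at 0 in all 4 pools and only Cidec was high enough to be tested. Cidec measured 1.37 FPKM in WT1, 0.282 in WT2, 7.92 in KO1 and 2.79 in KO2, and the others did not exceed 0.347 FPKM. The part of adipose tissue in the marker values was not tested.

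After I/R, proximal tubular cells that survive lose their differentiated state, switch on injury genes and divide to cover the denuded basement membrane. Most of them then regain their transporters. Some persist in an inflammatory, profibrotic state known as failed repair, for which VCAM1 is a widely used marker. KIM-1, encoded by Havcr1, and NGAL, encoded by Lcn2, are the best known of the marker proteins, because both appear in urine after acute tubular injury.

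Between 16045724 and 16927742 reads per pool fell on genes, and the 15414 genes that averaged 0.5 FPKM or more were tested, the 10 markers among them. The targeted gene followed the labels, with Apela at 5.27 and 4.57 FPKM in WT1 and WT2 against 0.536 and 0.245 in KO1 and KO2. Between pools of the same genotype, chi-square against counting error averaged 31.5 per gene for WT1 against WT2 and 24.5 for KO1 against KO2. Counting error leaves out the differences between mice, so nothing is read from these values. WT2 and KO2 lay at opposite ends of the range for most of the markers, so each value below is given for every pool.

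Among the 10 markers, Lcn2 was higher in both KO pools than in either WT pool, and Vcam1, Cd44 and Prom1 were lower in both. The other 6, Havcr1, Clu, Spp1, Sox9, Sox4 and Cp, overlapped between the genotypes. With limma and Benjamini-Hochberg adjustment over all genes tested, 0 of the 10 had an adjusted p under 0.05, and so did 0% of all genes. At an unadjusted p under 0.05 there were 2, Lcn2 and Vcam1, against 974 of the 15414 genes (6.32%), and voom weights on the recovered reads also gave 0 genes at the adjusted and 973 at the unadjusted threshold. These counts moved when a single pool was left out. The spread then comes from the other genotype alone, so the counts of such fits at this threshold are not given. KO pools above both WT pools were found for 1 marker (19.7% of all genes tested) and KO pools below both WT pools for 3 (18.1% of all genes tested), and nothing is read from counts this small. The median log2 fold change (KO minus WT) of the 10 was -0.21, beside 0.01 for all genes tested, and ranged from -0.43 without WT1 to -0.09 without WT2. With 2 pools in each genotype, the smallest two-sided p of an exact permutation test is 0.33.

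**Figure D1:**
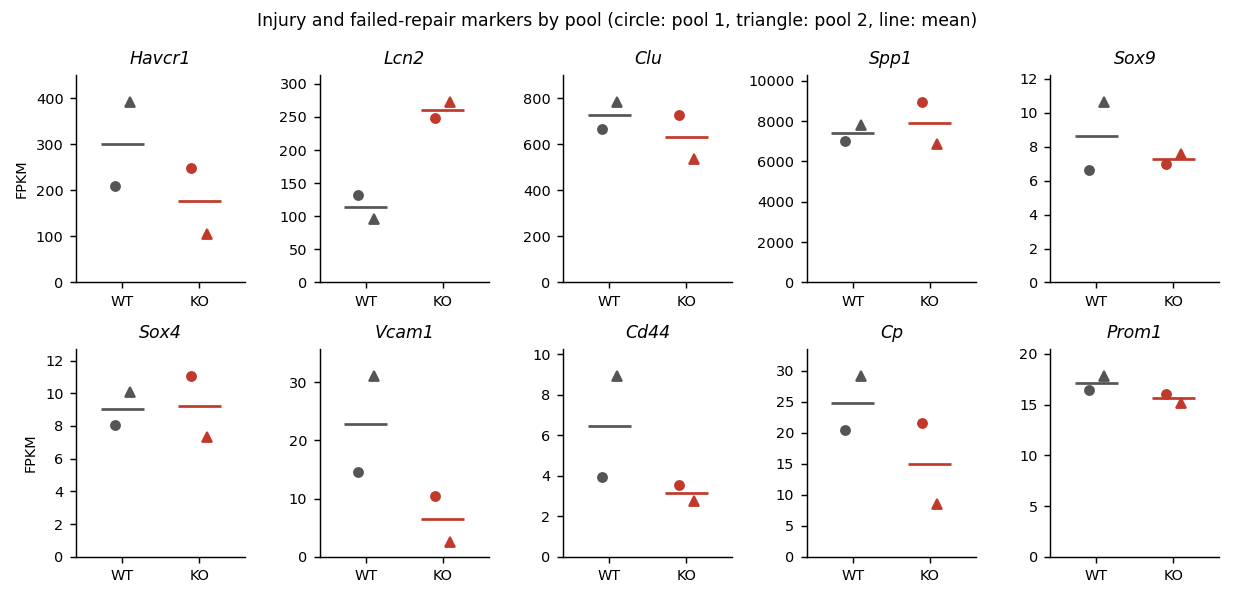
FPKM (vertical axis, starting at 0) of each of the 10 markers in the WT pools and the KO pools; circles stand for pool 1, triangles for pool 2 and lines for the mean of 2 pools. Lcn2 lies at 249 and 273 FPKM in the KO pools, above 133 and 95.2 in the WT pools, whereas Vcam1, Cd44 and Prom1 lie lower in both KO pools and the other 6 overlap.

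Lcn2 and Havcr1, the injury markers measured in urine as NGAL and KIM-1, differed in their order of pools. Lcn2 (ENSMUSG00000026822, minus strand, chr2:32384633-32388252, GRCm38) encodes lipocalin-2, which binds iron-loaded siderophores. It measured 133 FPKM in WT1, 95.2 in WT2, 249 in KO1 and 273 in KO2. The lowest KO pool was thus 1.88 times the highest WT pool. Means were 114 ± 26.4 FPKM in WT and 261 ± 17.0 in KO mice (SD, n = 2 pools each), a ratio of 2.29. The log2 fold change was 1.21 (standard error 0.21, 95% interval 0.65 to 1.77). Its adjusted p by limma with Benjamini-Hochberg adjustment was 0.613, with 0.431 after quantile normalization and 0.746 with the replicate block. Of all genes tested, 0.668% had a larger increase. Between 4297 and 11630 reads per pool stood behind these values.

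Havcr1 (ENSMUSG00000040405, plus strand, chr11:46735080-46779578) encodes KIM-1, a receptor for phosphatidylserine that lets tubular cells engulf apoptotic debris. It measured 210 FPKM in WT1, 393 in WT2, 249 in KO1 and 105 in KO2, so that the 2 KO pools straddled WT1. The pools of 1 genotype were 1.87 times apart in WT and KO2 was 0.424 of KO1. Means were 302 ± 129 FPKM in WT and 177 ± 101 in KO mice (SD, n = 2 pools each). The log2 fold change was -0.83, with a 95% interval from -2.20 to 0.55 (limma, Benjamini-Hochberg adjusted p = 0.807). It was -1.44 without KO1 and -0.21 without KO2. Havcr1 reads could partly be shared with Timd2 and Gm4926, since 5.30% of the 50-base windows of its longest coding transcript occur in theirs.

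The level of Lcn2 relative to Havcr1 separated the genotypes in these pools. The ratio of their FPKM was 0.630 in WT1 and 0.242 in WT2, compared with 1.00 in KO1 and 2.59 in KO2. Both KO ratios lay above both WT ratios. Relative to Havcr1, Spp1 (at most 33.4 in the WT pools, exceeded in both KO pools and 65.2 in KO2) and Vcam1 (0.069 and 0.079 in WT against 0.042 and 0.025 in KO pools) also separated the genotypes, as did Krt20, a keratin of injured epithelium (0.169 and 0.094 against 0.241 and 0.579). Lcn2, Vcam1 and Krt20 already separated the genotypes without division by Havcr1, whereas Spp1 overlapped. Havcr1 itself was highest in WT2 and lowest in KO2, and its part in the ratios was not tested. The share of all genes whose ratio to Havcr1 separates the genotypes is not given here. The ratios above were picked after the values had been seen, so no test is given.

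Clu and Spp1 were the most abundant of the 10 and overlapped between genotypes. Clu (ENSMUSG00000022037, plus strand, chr14:65968483-65981547) encodes clusterin, a secreted chaperone, and measured 667 FPKM in WT1, 785 in WT2, 728 in KO1 and 534 in KO2. KO2 was the lowest pool and KO1 lay between the WT pools, and the log2 fold change was -0.21 (95% interval -0.90 to 0.47). Spp1 (ENSMUSG00000029304, plus strand, chr5:104435118-104441050) encodes osteopontin, an integrin-binding phosphoprotein. It measured 7026 FPKM in WT1, 7789 in WT2, 8961 in KO1 and 6872 in KO2, the seventh highest mean of the genes tested. The KO pools held both its highest and its lowest value, with a log2 fold change of 0.09 (95% interval -1.20 to 1.37), which was -0.08 after quantile normalization. Spp1 overlaps the gene Gm42793 on the same strand, which shares 9.05% of its 50-base windows.

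Cp (ENSMUSG00000003617, plus strand, chr3:19957054-20009145), which encodes the copper-containing ferroxidase ceruloplasmin, followed the same order of pools as Havcr1. It measured 20.4 FPKM in WT1, 29.1 in WT2, 21.5 in KO1 and 8.55 in KO2. KO1 lay between the WT pools, and KO2 was 0.398 of KO1. The log2 fold change was -0.82 (95% interval -2.04 to 0.41) with all pools and -0.18 without KO2. The locus overlaps Hps3 on the opposite strand, at up to 6.26 FPKM, and whether the counting used strand is not given in the sources used here.

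Vcam1, Cd44 and Prom1 were the markers with both KO pools below both WT pools. Vcam1 (ENSMUSG00000027962, minus strand, chr3:116109949-116129688) encodes an adhesion molecule of the immunoglobulin family that binds leukocyte integrins and is found on activated endothelium as well as on injured tubules. It measured 14.6 FPKM in WT1, 31.0 in WT2, 10.5 in KO1 and 2.59 in KO2. Both KO pools lay below both WT pools, although the gap between WT1 and KO1 was 1.39 times and the highest pool was 12.0 times the lowest, the widest range of the 10. Means were 22.8 ± 11.6 FPKM in WT and 6.53 ± 5.57 in KO mice (SD, n = 2 pools each). The log2 fold change was -1.91 (standard error 0.70, 95% interval -3.76 to -0.05), and it was -2.82 without KO1 and -0.99 without KO2. Its adjusted p by limma with Benjamini-Hochberg adjustment was 0.785, with 0.780 after quantile normalization and 0.799 with the replicate block. Of all genes tested, 0.182% had a larger decrease.

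Cd44 (ENSMUSG00000005087, minus strand, chr2:102811141-102901665) encodes a receptor for hyaluronan and is expressed by leukocytes and injured epithelium. It measured 3.96 FPKM in WT1, 8.92 in WT2, 3.53 in KO1 and 2.76 in KO2. The separation of the genotypes was narrow, WT1 being 1.12 times KO1, and WT2 was 2.25 times WT1. The log2 fold change was -0.84 (95% interval -1.85 to 0.18, limma with Benjamini-Hochberg adjusted p = 0.797), and -0.30 without WT2. In contrast to Lcn2, Spp1 and Vcam1, Cd44 relative to Havcr1 did not separate the genotypes, at 0.019 in WT1, 0.023 in WT2, 0.014 in KO1 and 0.026 in KO2.

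Prom1 (ENSMUSG00000029086, minus strand, chr5:43993620-44102032) encodes prominin-1, the CD133 antigen of membrane protrusions, which marks scattered tubular cells after injury. It was the least variable marker, at 16.5 and 17.8 FPKM in WT1 and WT2 and 16.1 and 15.2 FPKM in KO1 and KO2. The KO pools lay below the WT pools, but WT1 was only 1.03 times KO1. The log2 fold change was -0.13 with a 95% interval from -0.42 to 0.16.

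Both transcription factors overlapped between genotypes. Sox9 (ENSMUSG00000000567, plus strand, chr11:112782224-112787760), which is switched on in tubular cells that regenerate after I/R, measured 6.64 FPKM in WT1, 10.7 in WT2, 6.98 in KO1 and 7.55 in KO2. WT2 alone stood above the other pools, and the log2 fold change of -0.20 (95% interval -0.83 to 0.43) became 0.12 without WT2. Sox4 (ENSMUSG00000076431, minus strand, chr13:28948919-28953713), a related factor of nephron development, measured 8.07 FPKM in WT1, 10.1 in WT2, 11.1 in KO1 and 7.33 in KO2. Its log2 fold change was 0.00 (95% interval -0.62 to 0.62), the KO pools again holding the highest and the lowest value. Antisense to Sox4 lies Gm26735, which shares 54.1% of the 50-base windows of Sox4, the largest share among the 10 markers. Gm26735 was listed at 0 in all pools, and without known strand use reads of the 2 genes cannot be told apart.

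**Figure D2:**
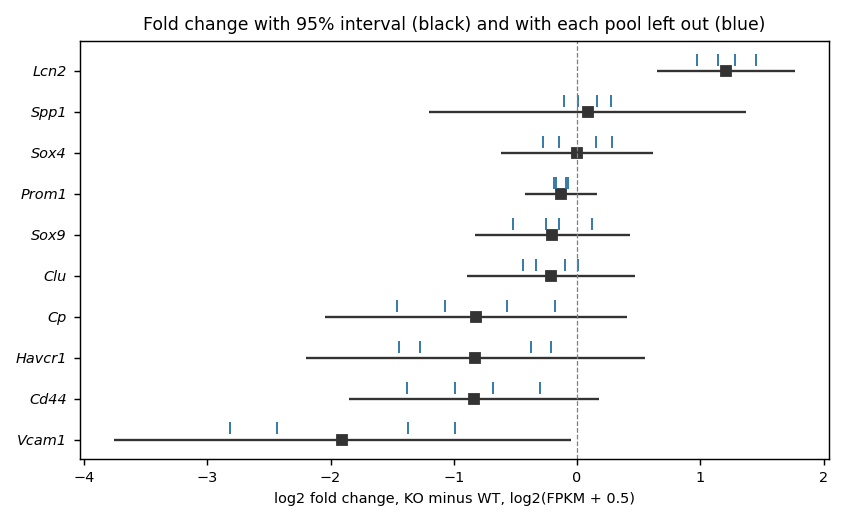
Log2 fold change (KO minus WT, on the log2(FPKM + 0.5) scale, horizontal axis) of the 10 markers with limma's 95% interval in black, and with each pool left out in blue. The interval excludes 0 for Lcn2 (0.65 to 1.77) and Vcam1 (-3.76 to -0.05), and the values with a pool left out cross 0 for Clu, Spp1, Sox9 and Sox4. The intervals are not adjusted for the 15414 genes tested, of which 6.32% had an unadjusted p under 0.05 by limma and 0 an adjusted one.

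Many of the markers had their extremes in the same 2 pools. WT2 was the highest pool for 7 of the 10 (29.1% of all genes tested), KO2 the lowest for 8 (23.7% of all genes tested), and both held for 6, namely Havcr1, Clu, Vcam1, Cd44, Cp and Prom1 (11.1% of all genes tested). Of these 6, Vcam1, Cd44 and Prom1 were also lower in both KO pools. Spp1 and Sox4 were instead highest in KO1, Sox9 was lowest in WT1, and Lcn2 had the reverse order, with its lowest value in WT2 and its highest in KO2. These counts were chosen after the values had been seen. The mean of the 10 centred log2 profiles was -0.04 in WT1, 0.41 in WT2, 0.11 in KO1 and -0.48 in KO2, so the pools of either genotype lay further from each other than the 2 genotype means did. Of the 7901 genes that averaged 5 FPKM or more, those nearest to this mean profile by root mean square difference over the 4 pools were Serping1 (0.033), Mcm6 (0.034), Ddx58 (0.052), Cygb (0.053) and Cnbd2 (0.054).

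**Figure D3:**
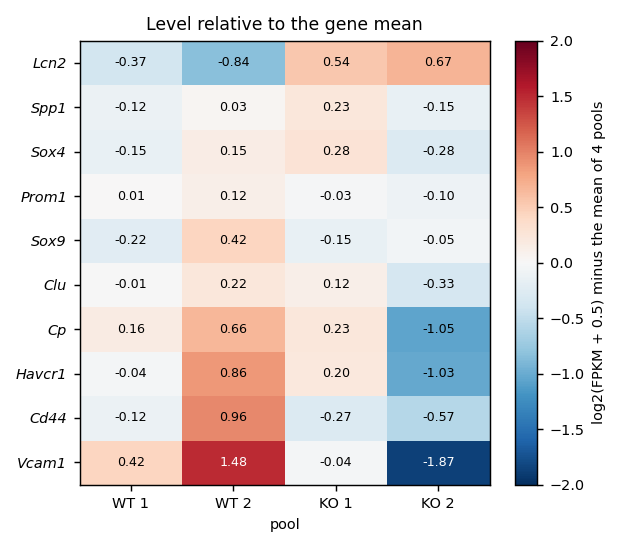
Level of each marker (rows) in each pool (columns) as log2(FPKM + 0.5) minus the mean of the 4 pools, red above and blue below that mean. Vcam1 spans from 1.48 in WT2 to -1.87 in KO2, Havcr1 and Cp follow the same order of WT2 and KO2, and Lcn2 reverses it.

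Lcn2 and Cd44 are both described as NF-κB targets in other settings, and Lcn2 also as a target of C/EBP factors. RefSeq promoter windows of GRCm38.p6, from 250 bases before to 50 after a start site, matched 7 of the 10 by symbol (Lcn2, Cd44, Cp, Prom1, Spp1, Havcr1 and Sox4, with 12 windows). They were searched on both strands for an NF-κB motif, GGG and CC with any 5 bases between them, and for TTGCNNAA (C/EBP) and TGANTCA (AP-1). The stretches below are from the matched genes whose pools did not overlap, on the gene's strand, with the matching letters in capitals and distances counted from the first of them. Shown for each gene and motif is a match that ends before the start site, for NF-κB and, in Lcn2, for C/EBP, while another NF-κB match of Cd44, on the gene's strand at its start site, and a second NF-κB and 2 AP-1 matches of Prom1 are not printed. The printed matches do not overlap one another, and the NF-κB motif lies on the other strand in the stretches of Lcn2 and Cd44 and on the gene's strand in that of Prom1.
Lcn2, chr2:32387822-32387851, minus strand, 102 bases before the start site: ggtaaaggatGGACTACCCCgcccaacagg
Lcn2, chr2:32387937-32387966, minus strand, 216 bases before the start site: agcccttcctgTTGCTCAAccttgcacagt
Cd44, chr2:102901691-102901720, minus strand, 45 bases before the start site: ggaagcctgtGGAGTGGCCCtggagaacgt
Prom1, chr5:44101729-44101758, minus strand, 12 bases before the start site: tggtgccctgGGGCTGGACCttaaataatt
The NF-κB motif was found in 5 of the 12 windows, of Lcn2, Cd44, Cp and Prom1, and in 50.8% of all 32851 promoter windows. The motif was thus found both for Lcn2, higher in both KO pools, and for Cd44 and Prom1, lower in both, with different letters in each. TTGCNNAA was found in 4 of the 12 windows, of Havcr1, Lcn2, Spp1 and Cp, and in 10.8% of all windows. TGANTCA was found in 4 of the 12, of Havcr1, Cp and Prom1, and in 7.81% of all windows. A match describes letters only and not a bound site.

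Other genes of the early tubular injury response were compared with the 10. Of 32 listed, 30 were tested, and 2 were higher and 1 lower at an unadjusted p under 0.05 (6.32% of all genes tested). In sign 19 were higher and 11 lower, with a median log2 fold change of 0.09 that ranged from 0.02 without KO2 to 0.31 without WT2. The KO pools lay above both WT pools for 9 of the 30 (19.7% of all genes tested) and below for 1 (18.1% of all genes tested). Krt20, a keratin induced in injured epithelium, measured 35.6 and 36.8 FPKM in WT1 and WT2 and 60.0 and 61.0 FPKM in KO1 and KO2. Cdkn1a, which encodes the cell cycle inhibitor p21, measured 25.8 and 24.9 FPKM against 59.0 and 45.7. For both genes the genotypes lay further apart than the pools within either, with log2 fold changes of 0.73 (standard error 0.11) and 1.02 (standard error 0.16), both with a Benjamini-Hochberg adjusted p of 0.545 by limma. Hmox1, which encodes heme oxygenase-1, was at 60.3 and 75.5 FPKM in WT and 81.8 and 106 in KO pools. Atf3, a stress-induced transcription factor, had the opposite order, at 6.79 and 11.3 FPKM in WT and 4.66 and 5.60 in KO pools.

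Genes of the failed-repair and inflammatory tubule state, of which Vcam1 is a widely used marker, were examined next. Of 24 listed, 21 were tested, and 4 were higher and 17 lower in sign of the log2 fold change (7917 and 7497 of all genes tested), with a median of -0.57 that ranged from -0.84 without WT1 to -0.24 without WT2. At an unadjusted p under 0.05 there were 1 higher and 2 lower (6.32% of all genes tested in either direction), and the smallest adjusted p was 0.757 (limma, Benjamini-Hochberg). The KO pools lay above both WT pools for 1 of the 21 and below for 8, with 12 overlapping, beside the same 19.7% and 18.1% of all genes tested. The chemokine gene Cxcl10 measured 9.64 and 19.5 FPKM in WT1 and WT2 and 4.11 and 0.957 in KO1 and KO2. Cxcl1, a neutrophil chemokine, had a log2 fold change of -0.85 without overlap of the pools, and Ccl20 was at 2.71 and 4.62 against 2.02 and 1.95 FPKM. Mmp7, which encodes a matrix metalloproteinase, went the other way, at 2.62 and 2.01 in WT and 3.69 and 3.58 FPKM in KO pools. WT2 was the highest pool for 16 of the 21 (29.1% of all genes tested), as it was for Vcam1 and Cd44. All 10 tested macrophage markers were highest in WT2 as well (29.1% of all genes tested), with a median of -0.65, or 0.01 without WT2. Genes of the failed-repair list such as Ccl2, Cxcl2, Cxcl10 and C3 are also made by myeloid cells, whose part in these values was not tested.

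Of 23 listed regeneration and progenitor transcription factors, 21 were tested, and 1 was higher and 0 lower at an unadjusted p under 0.05 (6.32% of all genes tested). In sign 10 were higher and 11 lower, with a median of -0.03 that was 0.16 without WT2. Klf4 measured 7.33 and 8.05 FPKM in WT and 9.84 and 9.37 in KO pools, and Cebpb, a C/EBP factor, 43.6 and 47.5 against 78.4 and 49.5 FPKM. Pax2, a factor of nephron development, did not exceed 8.59 FPKM in the KO pools and reached 10.3 in WT1. Cebpd was at 12.7 and 13.1 against 11.4 and 7.86 FPKM. The pools of the 2 C/EBP genes thus lay in opposite directions, but by narrow gaps. The nearest pools were 47.5 and 49.5 FPKM for Cebpb and 12.7 and 11.4 FPKM for Cebpd.

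The receptors and partners of the marker proteins were examined as well. Of 24 listed, 18 were tested, and 0 were higher and 2 lower at an unadjusted p under 0.05 (6.32% of all genes tested). The median was -0.08, from -0.25 without WT1 to -0.0018 without WT2. Lrp2 encodes megalin, which takes up filtered NGAL in the proximal tubule, and it measured 99.9 and 91.0 FPKM in WT and 70.4 and 76.3 in KO pools (log2 fold change -0.38, standard error 0.13). Slc22a17, the gene of another NGAL receptor, overlapped between genotypes, at 6.76 and 5.80 against 6.64 and 5.54 FPKM. Timd2, a relative of Havcr1, also overlapped, at 33.4 and 38.2 against 39.9 and 25.6 FPKM.

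Cd74 encodes the MHC class II invariant chain, which pairs with CD44 as a receptor for the cytokine MIF. It measured 139 and 283 FPKM in WT1 and WT2 and 46.6 and 37.5 in KO1 and KO2, a log2 fold change of -2.23 (standard error 0.37, limma, Benjamini-Hochberg adjusted p = 0.545). Among integrin subunits that bind osteopontin, Itgav (20.9 and 25.1 against 23.0 and 18.6 FPKM) and Itgb1 (116 and 135 against 129 and 143 FPKM) overlapped. Itgb3 was at 1.58 and 1.26 in WT and 1.93 and 2.88 FPKM in KO pools, and Itgb6 at 17.1 and 16.1 against 14.8 and 11.9 FPKM. Itga4, which encodes the VCAM1-binding integrin chain of leukocytes, stood between 0.239 and 0.640 FPKM, under the level tested.

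**Figure D4:**
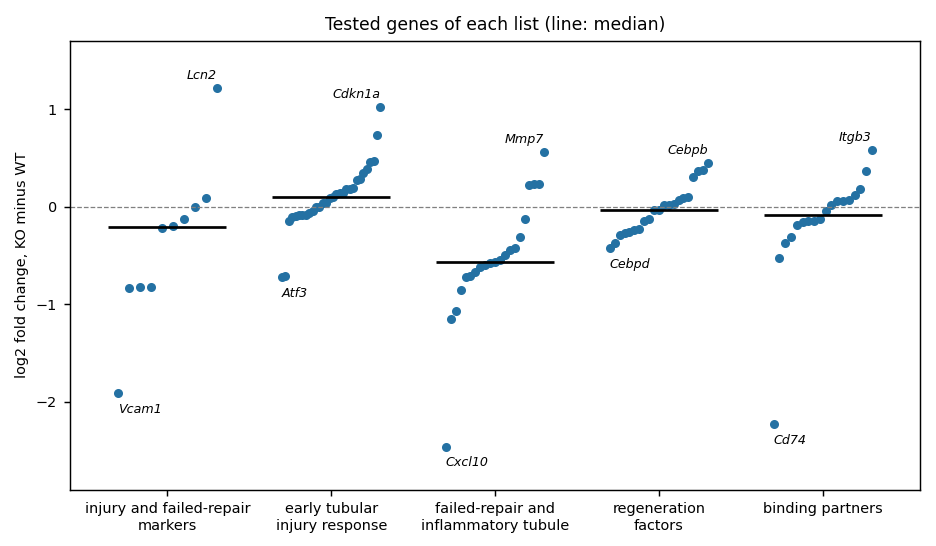
Log2 fold change (KO minus WT, log2(FPKM + 0.5) scale, vertical axis) of each tested gene in 5 lists, with a line at the list's median. The median is -0.57 for the failed-repair and inflammatory tubule genes and 0.09 for the early injury genes, and Cxcl10 and Cd74 lie lowest in their lists.

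Several of the markers are also made by cells other than tubular cells, and in whole-kidney RNA fewer cells of a type and less RNA per cell cannot be told apart. The 10 tested macrophage markers were all highest in WT2 (29.1% of all genes tested), the pool in which Vcam1 and Cd44 were highest. Their summed level, over all 11 listed, was 188 FPKM in WT1, 469 in WT2, 230 in KO1 and 219 in KO2, and their median log2 fold change was -0.65, or 0.01 without WT2. Summed fibroblast markers were at 185, 379, 231 and 316 FPKM in the same order of pools, highest in WT2 as well. Both sums were lowest in WT1, whereas Vcam1 and Cd44 were lowest in KO2. The part of these cells in the values of Vcam1, Cd44 and the failed-repair genes was not tested.

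Endothelial markers were compared because activated endothelium also makes Vcam1. All 10 had a higher mean in the KO pools on the log2 scale (7917 of all 15414 genes tested), with sums of 209 and 244 FPKM in WT1 and WT2 and 286 and 305 in KO1 and KO2, and 2 of the 10, Plvap and Flt1, had an unadjusted p under 0.05 (6.32% of all genes tested). The KO pools lay above both WT pools for 5 (19.7% of all genes tested) and overlapped for the other 5, and the median of 0.22 was 0.05 without WT1. Plvap, which encodes a protein of fenestrated capillaries, measured 103 and 110 against 161 and 152 FPKM. Lcn2 is also made by neutrophils. Their 7 listed markers summed to 11.4 and 23.0 FPKM in WT1 and WT2 and 12.3 and 29.7 FPKM in KO1 and KO2. The sum was highest in KO2, as was Lcn2, but it was higher in WT2 than in KO1, whereas Lcn2 was lowest in WT2. The median log2 fold change of the 5 tested was 0.31, but -0.40 without KO2. Ly6g was at 0 in all pools and S100a8 did not exceed 9.23 FPKM. The part of neutrophils in the Lcn2 values was not tested.

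Markers of the differentiated proximal tubule differed between pools of the same genotype. The summed level of 14 markers was 12759 FPKM in WT1, 7105 in WT2, 8372 in KO1 and 12364 in KO2, lowest in WT2. The androgen-dependent gene Kap made up most of this sum, with 8976, 4387, 6038 and 9316 FPKM. Without Kap, an alternative added after seeing the data, the sums were 3782, 2718, 2334 and 3048 FPKM and KO1 was lowest. Of the 14 markers, 7 had their lowest value in WT2 and 7 in KO1. The median log2 fold change of the 14 was -0.14, with 4 higher and 10 lower, and it was 0.07 without WT1 and -0.42 without WT2. The KO pools lay above both WT pools for 1 of the 14 (19.7% of all genes tested) and below for 5 (18.1% of all genes tested). At an unadjusted p under 0.05 by limma, 0 were higher and 2 lower (6.32% of all genes tested). Slc34a1, the sodium-phosphate cotransporter, measured 898 and 689 FPKM in WT and 365 and 609 in KO pools, and Slc5a2, a glucose transporter of the early segment, 114 and 95.3 against 56.9 and 77.1 FPKM. Slc22a6, an organic anion transporter, lay the other way, at 233 and 141 FPKM against 236 and 383. Their part in the marker values was not tested.

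**Figure D5:**
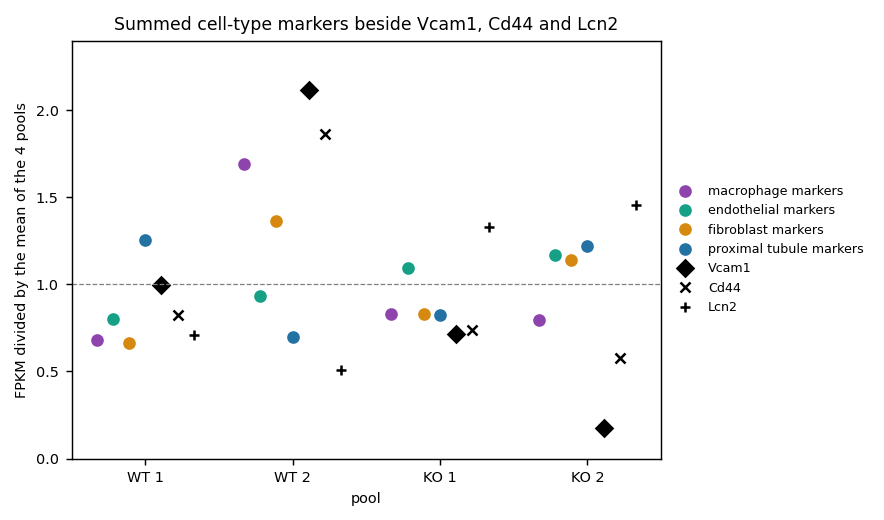
Summed FPKM of cell-type marker lists (coloured circles) and FPKM of Vcam1, Cd44 and Lcn2 (black symbols) in each pool, each divided by its mean over the 4 pools (dashed line at 1). Macrophage and fibroblast markers, Vcam1 and Cd44 are highest in WT2, and Lcn2 is lowest there. The sum of the proximal tubule markers is also lowest in WT2, but without Kap it is lowest in KO1 (2334 FPKM, against 2718 in WT2).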

How the data were processed

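For 54078 features the authors deposited FPKM, which divide the fragments of a gene by its length and by the library total. Sequencing and analysis were done by a company. HISAT2 2.0.5 and the builds mm10 and GRCm38.p6 are named in the submitters' processing notes, and the counting tool is not given in the sources used here. The deposited gene length can exceed the longest coding transcript (for Vcam1 8870 nt against 3469 nt), which affects levels compared between genes but not between pools. Coordinates were identical to GENCODE M21 for 97.1% of 53620 shared genes and for all 10 markers. Multiplied by length, 100% of nonzero FPKM were whole multiples of 1 read within 0.01, which gave reads per pool.

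The test was limma 3.58.1 in R 4.3.3 on log2(FPKM + 0.5), by lmFit and eBayes with trend, two-sided and without covariates. It covered the 15414 genes that averaged 0.5 FPKM or more, and Benjamini-Hochberg adjusted p-values had a threshold of 0.05. Fold changes on this scale understate those of low genes. The fit was tested on simulated data. FPKM are not counts, so recovered reads served for depth and for voom weights as an alternative. Other steps ran in Python 3.11.15 (pandas 2.3.3, scipy 1.17.1, numpy 2.4.6).

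The markers and lists were chosen with earlier results of these data known. Named genes were the 10 markers, Apela, listed binding partners, the 5 genes nearest in profile and, in each other list, up to 3 of the largest changes in each direction among genes that averaged 1 FPKM or more and whose pools did not overlap. Examples from these are given, beside markers of tissue identity, Kap, S100a8 and Ly6g. Ccl2, Cxcl2 and C3 were named apart from this rule, as genes that myeloid cells also make. Alternatives were pseudocounts of 0.1 and 1, other filters, no trend, coding genes only, quantile normalization, voom weights, a replicate block and each pool left out.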

Additional observations from a re-analysis of the deposited data

How the results depend on the processing

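The markers' counts at the adjusted threshold were 0 under each alternative run except an unadjusted p, which gave 2 markers and 974 genes. The number of genes past the adjusted threshold was 218 with no filter over 54078 features, and 0 when features at 0 in all pools were left out, an alternative chosen after seeing the data. Lcn2 stayed positive, from 0.97 without WT2 to 1.45 without WT1, and Vcam1 negative, from -2.82 without KO1 to -0.99 without KO2. Quantile normalization reversed Spp1 (-0.084) and Sox4 (-0.0085), and Sox4 was also -0.00074 with a pseudocount of 0.1 and -0.0082 with voom weights; the cause was not tested. With each pool left out, Clu ranged from -0.44 to 0.0086, Spp1 from -0.11 to 0.28, Sox9 from -0.52 to 0.12 and Sox4 from -0.28 to 0.28. The median of the early injury genes was -0.02 after quantile normalization. Deviations of WT1 and KO1 from the mean of their genotype had a correlation of -0.0017 over all genes tested. This value cannot show whether pools of the same number shared a preparation. The replicate block gave 0 genes past the threshold and 932 at an unadjusted p, with 1 marker. Every marker had at least 304 reads in each pool, and each genotype had 2 pools. The shares of read depth and of the spread between pools in the precision were not compared.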
